A study of Mus musculus with 12 samples.

Results

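Nkg7, Galnt6, Mdga1 and Trp53inp1 were 4 genes picked because their RNA was strongly lowered by estradiol (E2) in mouse hematopoietic stem cells (HSCs), and because they fell into no other gene family described for these data. They are 4 of the 19935 genes with a probe set of their own among 21780 probe sets that carry 1 gene symbol. Each had 1 probe set (10552406, 10432661, 10449608 and 10503259, in the order above), and all 4 passed the filter on dim genes, which kept 9967. HSCs, the cells that give rise to all blood lineages, were taken by flow cytometry as lineage- cells with the markers c-kit+, Sca-1+, CD150+ and CD48-, at 5000 to 7000 per sample, and their RNA was amplified and hybridised to microarrays. The 12 arrays form 4 groups of 3, with 3 mice per group, aged 2 to 3 months. Males were given 100 µL of corn oil or 2 µg of E2 in that volume of oil. Females were given the same 2 treatments, and all injections were under the skin. The sources used here do not give the strain of the mice or the time between injection and sorting. Precision is limited by there being 3 arrays per group.

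E2 acts mainly through estrogen receptors, nuclear receptors that bind DNA and raise or lower the transcription of nearby genes. The 4 genes encode unrelated proteins. Nkg7 is a membrane protein of the cytotoxic granules of natural killer (NK) cells and T cells, where it takes part in the release of granule content. Galnt6 is a Golgi enzyme that starts mucin-type O-glycosylation by attaching N-acetylgalactosamine to serine or threonine. Mdga1 is an immunoglobulin-domain protein held to the cell surface by a glycolipid (GPI) anchor and is known in neurons for binding neuroligin 2. Trp53inp1 is a stress-induced target of p53 that acts with p53 in the nucleus and binds proteins of the autophagosome in the cytoplasm.

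Values are deposited probe set intensities on a linear scale. Fold changes are differences of log2(intensity + 1), fitted with limma over all 12 arrays. No background level comes with the values, so intensities below 182, the filter level (the median gene), were treated as close to background. Because the genes were picked on the E2 response, that response is described here without a test, and tests are given only for differences between the sexes. In RNA from a cell population, fewer cells that express a gene and less RNA per cell cannot be told apart.

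Nkg7 had the largest decrease of the 4. In males its intensity was 498, 725 and 497 on the oil arrays (replicates 1 to 3) and 112, 214 and 169 on the E2 arrays. In females it was 664, 426 and 395 under oil and 220, 119 and 181 under E2. Every E2 array lay below every oil array of its sex, and also below every oil array of the other sex. The group means were 573 ± 131 and 165 ± 51.0 in males and 495 ± 147 and 173 ± 51.2 in females (mean ± SD, n = 3). The log2 difference was -1.82 ± 0.27 (SE) in males and -1.51 ± 0.27 in females, which left 28.4% and 35.0% of the oil level. Of the 6 E2 arrays, 4 read below the filter level (2 in each sex), so the size of the decrease is approximate.

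Galnt6 was nearly uniform under oil and scattered under E2. The oil arrays read 734, 773 and 782 in males and 658, 613 and 639 in females, so that the SD was 3.37% and 3.56% of the mean. The E2 arrays read 241, 434 and 372 in males and 521, 273 and 211 in females, with SDs of 28.3% and 49.0% of the mean. Female E2 replicate 1, at 521, came closest to the oil arrays, but no E2 array reached the lowest oil array of its sex. The group means under oil and E2 were 763 ± 25.7 and 349 ± 98.7 in males, and 637 ± 22.6 and 335 ± 164 in females (mean ± SD, n = 3). The log2 difference was -1.17 ± 0.26 (SE) in males and -1.03 ± 0.26 in females, or 44.5% and 48.9% of the oil level. Leaving out single arrays moved the female difference between -1.40, without female E2 replicate 1, and -0.75, without female E2 replicate 3. No Galnt6 array read below the filter level.

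Mdga1 had similar oil levels in both sexes and its lowest readings in E2-treated females. In males it read 403, 353 and 483 under oil and 233, 251 and 177 under E2. In females it read 425, 368 and 370 under oil and 198, 152 and 131 under E2. The groups did not overlap in either sex, and the 3 lowest readings of all were female E2 replicates 2 and 3 and male E2 replicate 3, the only arrays below the filter level for this gene. The means were 413 ± 65.4 and 220 ± 39.0 in males and 387 ± 32.2 and 160 ± 34.5 in females (mean ± SD, n = 3). The log2 difference was -0.91 ± 0.17 (SE) in males and -1.29 ± 0.17 in females, which left 53.3% and 41.0% of the oil level. The female E2 mean lies below the filter level, so the size of the decrease is approximate there.

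Trp53inp1 had the smallest decrease and the tightest E2 arrays. Its male oil arrays read 464, 429 and 551 and its male E2 arrays 348, 327 and 330. Its female oil arrays read 447, 595 and 479 and its female E2 arrays 268, 299 and 354. The lowest oil array, at 429 in a male, lay above the highest E2 array, at 354 in a female, so the treatments did not overlap across all 12 arrays. The means were 482 ± 63.0 and 335 ± 11.5 in males and 507 ± 77.9 and 307 ± 43.8 in females (mean ± SD, n = 3). The log2 difference was -0.51 ± 0.13 (SE) in males and -0.72 ± 0.13 in females, or 70.1% and 60.7% of the oil level. All 12 arrays lay above the filter level.

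**Figure D1:**
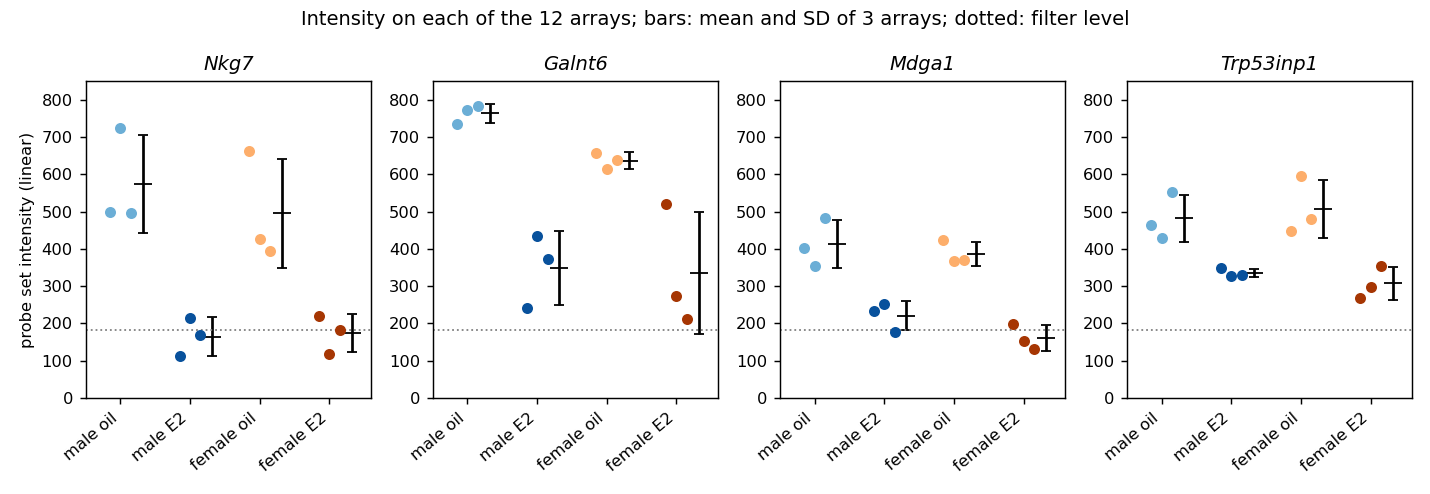
Probe set intensity (linear axis from 0) of each gene on the 12 arrays, with 3 points per group in the order of replicates 1 to 3, the mean and SD of the group as a black bar beside them, and the filter level of 182 as a dotted line. In all 4 panels every E2 point lies below every oil point of the same sex, and Galnt6 has narrow oil groups (613 to 782) and wide E2 groups (211 to 521).

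Over both sexes the log2 difference was -1.67 ± 0.19 (SE) for Nkg7, -1.10 ± 0.19 for Galnt6, -1.10 ± 0.12 for Mdga1 and -0.62 ± 0.092 for Trp53inp1. Among the 9967 genes, ordered from the largest decrease, Nkg7 stood at place 1, Galnt6 at place 11, Mdga1 at place 12 and Trp53inp1 at place 77. The description of all 4 as strongly lowered thus holds less well for Trp53inp1, since 76 genes had a larger decrease. In the sexes taken singly Trp53inp1 stood at place 121 in males and 65 in females, Nkg7 at 1 and 4, Galnt6 at 8 and 15, and Mdga1 at 18 and 9. The median difference of all genes was -0.01. All 4 genes had non-overlapping groups in both sexes, as did 4.88% of all genes in the same direction (13% in males and 13.1% in females). In limma's model with an adjusted p under 0.05, 3 of the 4 genes were lower in males, where 0.863% of all genes were lower, 0.572% higher and 1.43% called in either direction. In females 4 of the 4 were lower, against 2.75% of all genes lower, 0.813% higher and 3.56% in either direction. On average 4 of the 4 were lower, against 5.78% lower, 3.12% higher and 8.9% in either direction. These counts follow from how the genes were chosen and are not evidence about them.

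**Figure D2:**
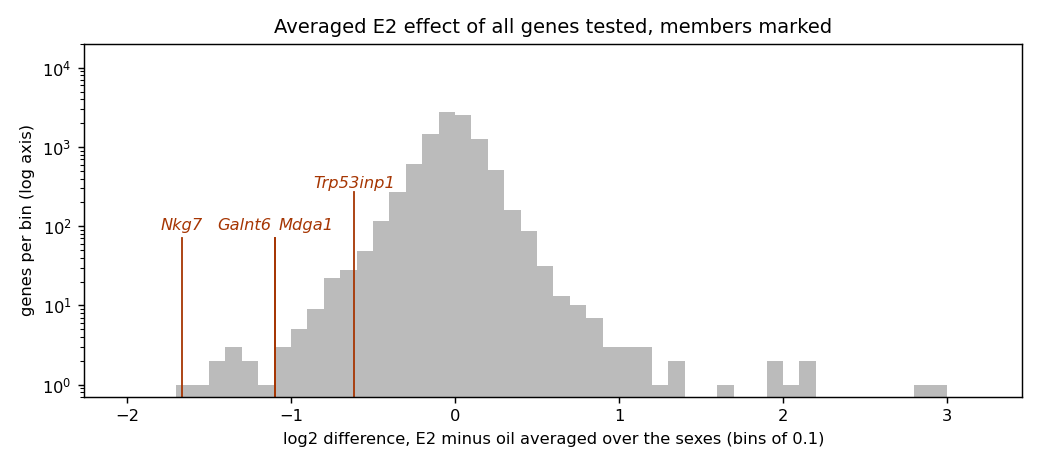
Number of genes (log axis) by log2 difference between E2 and oil averaged over the sexes, in bins of 0.1, for the 9967 genes tested. Vertical lines mark Nkg7 at -1.67, Galnt6 and Mdga1 both at -1.10, and Trp53inp1 at -0.62, with 76 genes at larger decreases.

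Sex was not used to pick the genes. The female minus male difference averaged over oil and E2 is independent of both E2 contrasts in this balanced design if groups vary equally. Galnt6 arrays scattered more under E2 than under oil, so for that gene the difference between the sexes may not be independent. None of the 4 genes passed for that difference in limma's test with Benjamini-Hochberg adjustment over all genes (0 of 4 called, against 0.0401% of all genes, 0.0301% higher and 0.01% lower in females), and 1 of 4, Mdga1, had an unadjusted p under 0.05, as did 838 of the 9967 genes. Mdga1 was lower in females by a log2 difference of -0.27 ± 0.12 (SE; 95% interval -0.52 to -0.021; adjusted p = 0.557 from limma). Taken by treatment, the female minus male difference of Mdga1 was -0.46 ± 0.17 under E2 and -0.083 ± 0.17 under oil, given as a description because these values share arrays with the choice of the gene. Galnt6 differed by -0.19 ± 0.19 (interval -0.59 to 0.21; limma adjusted p = 0.814). Its oil arrays read 613 to 658 in females and 734 to 782 in males, while its E2 arrays, at 211 to 521 and 241 to 434, overlapped between the sexes. How many of all genes separate by sex under oil was not counted, so no weight is given to that gap. The fitted difference under oil was -0.26 ± 0.26, with an error pooled over all 12 arrays. Nkg7 differed by -0.075 ± 0.19 (interval -0.49 to 0.34; limma adjusted p = 0.945) and Trp53inp1 by -0.032 ± 0.092 (interval -0.23 to 0.17; limma adjusted p = 0.954).

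The size of the response did not pass a test of the difference between the sexes for any of the 4 genes. By limma 0 of 4 were called and 0 had an unadjusted p under 0.05, while 0.01% of all genes were called. If groups vary equally, the difference in response is independent of the averaged E2 effect, but not of the effect in a single sex. Galnt6 scattered more under E2 in females than in males, so for that gene this may not hold. A choice of genes that drew on the response in either sex alone would thus bear on this test. The female minus male response was 0.30 ± 0.38 for Nkg7 (95% interval -0.52 to 1.13; limma adjusted p = 0.960) and 0.135 ± 0.37 for Galnt6 (-0.67 to 0.94; limma adjusted p = 0.987). It was -0.38 ± 0.23 for Mdga1 (-0.88 to 0.12; limma adjusted p = 0.954) and -0.21 ± 0.18 for Trp53inp1 (-0.60 to 0.19; limma adjusted p = 0.954). The intervals reach 1.13 for Nkg7, 0.94 for Galnt6, -0.88 for Mdga1 and -0.60 for Trp53inp1 on the log2 scale. For all 4 genes they thus show neither a difference between the sexes nor equal responses.

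**Figure D3:**
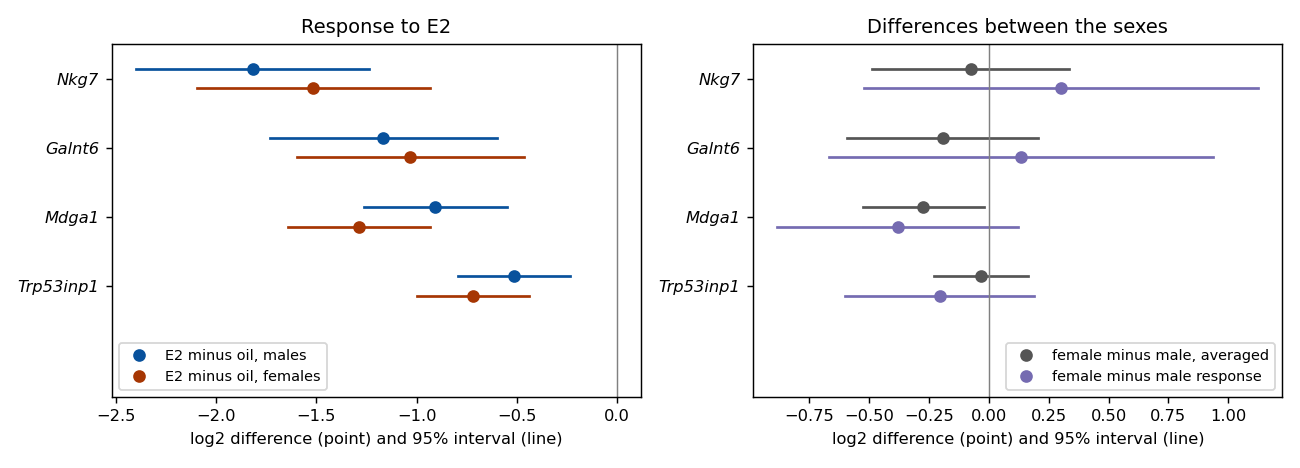
Fitted log2 differences (points) with 95% intervals (lines) for the 4 genes, on the left E2 minus oil in males and in females, on the right the female minus male level averaged over treatments and the female minus male response to E2. On the right every interval includes 0 except that of the averaged sex difference of Mdga1, which ends at -0.021.

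The 4 genes differed in how much arrays of one group varied. After group means were removed, the residual SD was 0.41 on the log2 scale for Nkg7 and 0.40 for Galnt6, larger than that of 99.4% and 99.2% of genes. It was 0.24 for Mdga1 and 0.18 for Trp53inp1, against a median of 0.14 over all genes. Galnt6 and Nkg7 tended to deviate in the same direction (r = 0.58 between their deviations over the 12 arrays), as did Galnt6 and Mdga1 (r = 0.53). Trp53inp1 ran against Galnt6 (r = -0.55) and Nkg7 (r = -0.46). The remaining pairs were weaker, at r = 0.14 for Nkg7 and Mdga1 and -0.20 for Mdga1 and Trp53inp1. On female E2 replicate 1, for example, Galnt6 lay 0.74, Nkg7 0.39 and Mdga1 0.33 above its group mean, while Trp53inp1 lay at -0.19. Not every array went this way, since on female E2 replicate 3 Nkg7 lay at 0.11, Galnt6 at -0.56 and Mdga1 at -0.27. These correlations are descriptions over 12 arrays that share 4 group means.

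**Figure D4:**
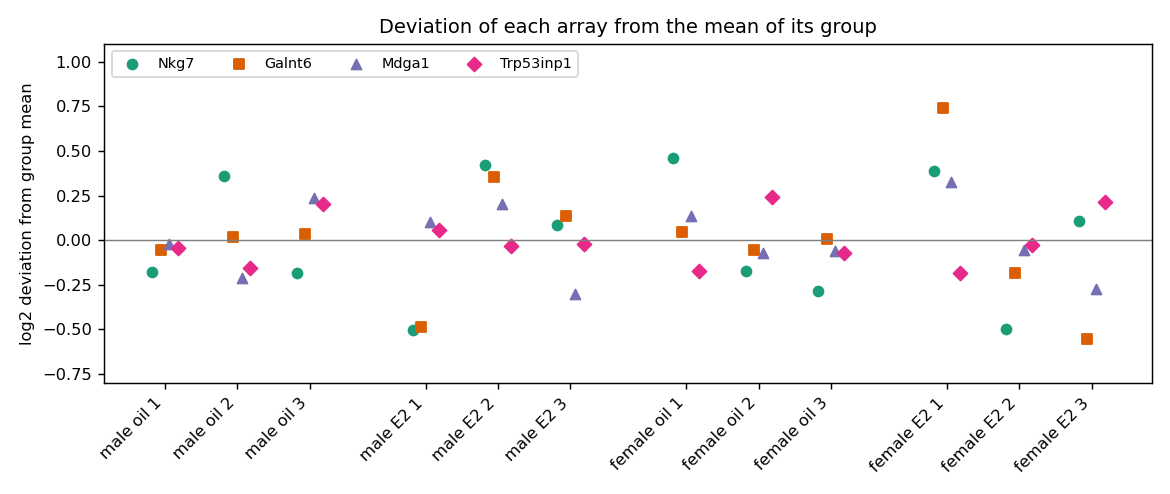
Deviation of each array from its group mean (log2 scale) for the 4 genes, 1 symbol per gene. Galnt6 reaches 0.74 on female E2 replicate 1 and -0.56 on female E2 replicate 3, where Trp53inp1 stands at -0.19 and 0.22, while the Galnt6 oil arrays lie between -0.056 and 0.048.

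The windows of 250 bases before a start of transcription were read from RefSeq's promoter table (GRCm38.p6) for 3 of the 4 genes, to show what lies before genes whose RNA was lower together. Those of Nkg7 and of the outermost Galnt6 start are printed 5′ to 3′ on the gene's strand. Capitals mark a match to the Runx motif TGTGGT in Nkg7 (read on the opposite strand) and to the Sp1 GC box GGGCGG, on either strand, in Galnt6.
Nkg7, chr7:43436888-43437137, plus strand: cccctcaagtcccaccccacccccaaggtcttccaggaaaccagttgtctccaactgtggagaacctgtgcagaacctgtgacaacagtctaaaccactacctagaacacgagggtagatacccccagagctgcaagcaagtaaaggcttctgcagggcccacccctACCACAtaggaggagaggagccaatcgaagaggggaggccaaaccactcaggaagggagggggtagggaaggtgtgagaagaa
Galnt6, chr15:100729377-100729626, minus strand: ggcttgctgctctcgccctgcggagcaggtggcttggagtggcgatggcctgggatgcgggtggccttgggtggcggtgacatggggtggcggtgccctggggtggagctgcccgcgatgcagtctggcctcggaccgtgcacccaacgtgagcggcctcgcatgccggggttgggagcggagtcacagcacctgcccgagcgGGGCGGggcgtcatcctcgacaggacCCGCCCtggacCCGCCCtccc

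The 2 windows are unlike in composition, with 56.0% G and C before Nkg7 and 72.8% before Galnt6, against a median of 52.4% over 32851 windows. The Runx match began 83 bases before the Nkg7 start, and 14.0% of all windows hold at least 1. The 3 GC boxes of Galnt6 began 47, 21 and 10 bases before its start, and 32.7% of all windows hold at least 1. The full palindromic estrogen response element was in none of the 4 windows of the 3 genes, and is in 0.0639% of all. Its half-site GGTCA, which the full element contains, was in 1 of them, a second Galnt6 window inside the gene, and is in 35.2% of all. The Mdga1 window, which overlaps the annotated span of the gene, had 70.4% G and C, 1 GC box and 1 p53 half-site (7.13% of all windows). The AP-1 motif TGANTCA (6.75% of all windows), the Ets motif CCGGAA (12%), the cyclic AMP response element TGACGTCA (1.55%) and the E-box CACGTG (6.02%) were searched on both strands and were in none of the 4. A match or its lack is a description of these letters only.

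None of the 6 nearest measured neighbours above the filter passed the test for the averaged E2 effect (8.9% of all genes were called). Lim2 and Cldnd2, on either side of Nkg7 on chromosome 7, averaged intensities of 90.2 and 95.5, below the filter level. Beside Galnt6 on chromosome 15, Cela1 had an averaged log2 difference of 0.061 ± 0.076 (SE; limma adjusted p = 0.681) and Slc4a8 one of -0.090 ± 0.21 (limma adjusted p = 0.845). Beside Mdga1 on chromosome 17, Ccdc167 had 0.0058 ± 0.087 (limma adjusted p = 0.978) and Zfand3 had -0.27 ± 0.079, just outside the threshold (limma adjusted p = 0.0507, with 0.00759 to 0.124 over 21 alternatives, 5 of them under 0.05). Beside Trp53inp1 on chromosome 4, Ndufaf6 had 0.11 ± 0.11 (limma adjusted p = 0.57) and Ccne2, a cyclin that drives entry into S phase, had 0.36 ± 0.17 (limma adjusted p = 0.215). Of the 6 neighbours above the filter, 0 passed, which for so few genes is near the share of all genes called. Among them 1, Zfand3, had a difference of more than 0.2 in the direction of the member beside it.

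Markers of T and NK cells, in which Nkg7 is best known, were read on the same arrays. Of 24 T and NK cell markers on the array, 5 lay above the filter, and 0 of these passed for the averaged E2 effect (0 at an unadjusted p under 0.05; 8.9% of all genes were called by limma in either direction). Their summed intensity was 2672 to 3088 in oil-treated males, 2761 to 2865 in E2-treated males, 2712 to 2946 in oil-treated females and 2713 to 3297 in E2-treated females, so the groups overlapped. Granzyme A (Gzma) read 39.0 to 45.5 and granzyme B (Gzmb) 90.4 to 140.5 over all 12 arrays, and perforin (Prf1) 95.4 to 160, all below the filter level. Other markers of this list lay above that level on every array, with Cd247 (the CD3 zeta chain) at 332 to 523, Cd3e at 230 to 291 and the chemokine Ccl5 at 187 to 344. Their averaged log2 differences were -0.051 ± 0.097, -0.0097 ± 0.071 and -0.085 ± 0.14 (SE; limma adjusted p = 0.801, 0.952 and 0.757). Cd4 and Zap70, above the filter on average but not on every array, had 0.087 ± 0.088 and 0.041 ± 0.085 (limma adjusted p = 0.592 and 0.821). Klre1, below the filter and so not tested, had 0.30 ± 0.067. Of 28 genes of granule biogenesis and release, 19 lay above the filter, with 0 higher, 2 lower and 17 not passing. That is 10.5% called, near the 8.9% of all genes, and the median log2 difference was -0.031. The 2 were the lysosomal proteases Ctsl at -0.56 ± 0.12 (SE; limma adjusted p = 0.0151) and Ctsw, a cathepsin of cytotoxic lymphocytes, at -0.43 ± 0.089 (limma adjusted p = 0.0103). Srgn, the proteoglycan that packs granule content, was at -0.0087 ± 0.051 (limma adjusted p = 0.939).

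Of the other GALNT genes on the array, enzymes of the same first step, 6 lay above the filter and 0 of them passed the test for the averaged E2 effect. Galnt1 had an averaged log2 difference of -0.13 ± 0.078 (SE; limma adjusted p = 0.335), Galnt2 of -0.19 ± 0.086 (0.185), Galnt4 of -0.050 (0.723), Galnt10 of -0.14 (0.231), Galnt11 of 0.069 (0.464) and Galnt7 of 0.23 ± 0.078 (0.0891). Galnt3 stayed between 51.2 and 76.35 on all arrays and Galnt12 between 128 and 199. Of all 15 O-glycosylation genes above the filter, 1 was higher, 1 lower and 13 did not pass (13.3% called, against 8.9% of all genes), and their median was -0.048. The 2 were the sialyltransferases St3gal2 at 0.22 ± 0.061 (limma adjusted p = 0.0379) and St3gal1 at -0.29 ± 0.078 (limma adjusted p = 0.0368), and both calls ended under 13 of 21 alternatives, with adjusted p up to 0.104 and 0.102.

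Partners and relatives of Mdga1 known from neurons were mostly dim. Of 27 neuroligins, neurexins, receptor phosphatases, GPI-anchored immunoglobulin proteins and other surface adhesion proteins on the array, 6 lay above the filter. Mdga2, the paralog of Mdga1, read 52.9 to 94.05. Of the 6, 0 were higher, 2 lower and 4 did not pass, against 8.9% of all genes called in either direction, and the median was -0.16 (all genes -0.01). The neuroligin that Mdga1 binds, Nlgn2, fell by 0.34 ± 0.067 on the log2 scale (SE; limma adjusted p = 0.00759), with intensities of 591 ± 60.9 and 452 ± 20.4 in males under oil and E2, and 552 ± 51.7 and 451 ± 9.79 in females (mean ± SD, n = 3). Thy1, a small GPI-anchored surface protein, fell by 0.77 ± 0.10 (limma adjusted p = 0.000472), with 278 ± 4.73 and 153 ± 22.7 in males, and 282 ± 24.5 and 177 ± 39.7 in females. Its E2 means lie below the filter level, so that size is approximate.

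Of 21 p53 target genes brighter than the filter level, 1 fell and 0 rose, leaving 20 that did not pass (4.76% called, against 8.9% of all genes), with a median of -0.058. The 1 was Def6, a guanine nucleotide exchange factor, at -0.25 ± 0.058 (SE; limma adjusted p = 0.0187, and 0.0569 without the filter), and its call also ended without female oil replicate 2. Mdm2, the ubiquitin ligase and feedback inhibitor of p53, had -0.010 ± 0.082 (limma adjusted p = 0.956). The kinases that act on p53 together with Trp53inp1 were at -0.10 ± 0.067 for Hipk2 (limma adjusted p = 0.374) and -0.22 ± 0.072 for Prkcd (limma adjusted p = 0.0685, and 0.0156 without female E2 replicate 3). A further list, drawn up for the p53 family and partners of Trp53inp1, had 7 genes above the filter, and the p53 family members measured lay below it. On this list E2f1, a transcription factor of S phase entry, was higher at 0.36 ± 0.096 (limma adjusted p = 0.0343). Foxo3, a factor of stem cell quiescence, was lower at -0.25 ± 0.072 (limma adjusted p = 0.0475). Neither is a p53 family member or a kinase named above. These calls ended under 9 and 15 of 21 alternatives (adjusted p up to 0.0861 and 0.118). The count of p53 targets depends on the filter, since 2 genes of the list with large differences had mean levels under it and were not tested. Gadd45a, a growth arrest and DNA damage gene, had a log2 difference of -0.94 ± 0.14 (SE), larger than that of Trp53inp1. Its intensities were 241 ± 21.5 and 118 ± 11.7 in males under oil and E2, and 222 ± 33.8 and 125 ± 43.4 in females (mean ± SD, n = 3). Perp, a membrane protein of p53-dependent cell death, had 0.67 ± 0.11, with 114 ± 7.92 and 174 ± 19.8 in males, and 129 ± 14.6 and 219 ± 47.7 in females. With the filter at the 25th percentile 2 p53 targets were lower and 1 higher. The paralog Trp53inp2 read 78.5 to 108, below the filter level.

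Autophagy is the other process in which Trp53inp1 acts. Of 31 core autophagy genes brighter than the filter level, 6 fell, 0 rose and 25 did not pass, which is 19.4% called against 8.9% of all genes, and the median was -0.062. This difference in share was not tested, and it depends on single arrays, with 2 to 7 genes lower when an array was left out: 2 without female oil replicate 2, and 3 without male oil replicate 2 or male E2 replicate 2. Without the filter it was 3. Vmp1, a membrane protein that starts autophagosomes, fell by 0.43 ± 0.059 (SE; limma adjusted p = 0.000825), with intensities of 1122 ± 64.9 and 825 ± 63.9 in males under oil and E2, and 1144 ± 48.3 and 861 ± 25.3 in females (mean ± SD, n = 3). Map1lc3b, the LC3 protein of the autophagosome membrane, fell by 0.32 ± 0.072 (limma adjusted p = 0.0151), with 1497 ± 69.7 and 1236 ± 86.8 in males, and 1482 ± 131 and 1149 ± 131 in females. Both passed under all 21 alternatives. The starter kinases Ulk1 and Ulk2 were at -0.32 and -0.29 (limma adjusted p = 0.0208 and 0.0157), the LC3 relative Gabarapl2 at -0.39 (limma adjusted p = 0.0212, and -0.19 with the mean of its probe sets) and the cargo receptor Nbr1 at -0.23 (limma adjusted p = 0.0441). The calls of Ulk1, Gabarapl2 and Nbr1 ended under 5, 5 and 17 alternatives, with adjusted p up to 0.0615, 0.152 and 0.112, and that of Ulk2 narrowly without female oil replicate 2 (0.0505).

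**Figure D5:**
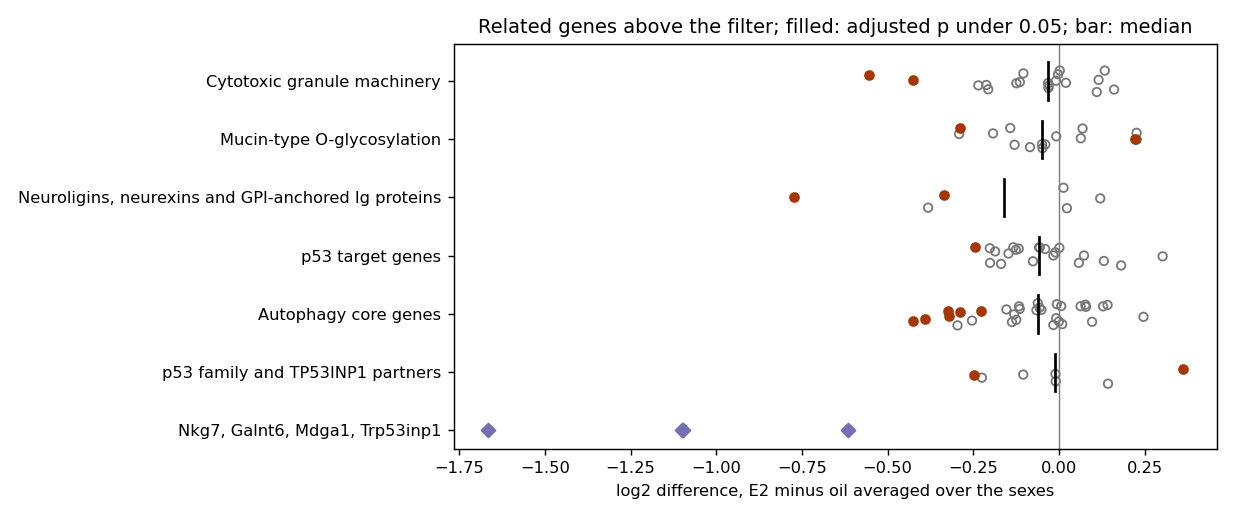
Averaged log2 difference between E2 and oil for the related genes above the filter, 1 row per list, with filled points for an adjusted p under 0.05, open points for the rest and a black bar at the median; the bottom row shows the 4 genes, where Galnt6 and Mdga1 share the point at -1.10. The list medians lie between -0.16 and -0.010, and Thy1 at -0.77 is the related gene farthest to the left.

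By the pattern over the 12 arrays, Vmp1 was also the gene most like Nkg7 among 9334 named genes (r = 0.97), followed by the cytokine receptor gene Flt3 and Islr (r = 0.94 each). Galnt6 was most like the cell cycle kinase gene Cdk6 (r = 0.96), Smad5, which carries BMP signals, and the receptor gene Tnfrsf13c (r = 0.95 each). Mdga1 was most like Maged1, Serpinf1 and Vat1 (r = 0.95 each), and Trp53inp1 most like Smim3 (r = 0.95), Git2 and Wbp1l (r = 0.94 each). These values hold both the difference between treatments and the spread within groups. With group means removed, r was 0.84 for Nkg7 with Vmp1, 0.85 for Galnt6 with Cdk6, 0.77 for Mdga1 with Maged1 and 0.73 for Trp53inp1 with Smim3. It was lower for some of the others, at 0.48 for Mdga1 with Serpinf1, 0.60 for Nkg7 with Flt3 and 0.62 for Trp53inp1 with Git2. The search over the 12 arrays drew on the spread within groups too, so these values are not a separate check. Because the likeness was measured over oil and E2 arrays together, to genes picked as lowered by E2, the direction of these 12 genes follows from how they were found, and their count is a description. Of the 12, 10 were lower under E2 by limma, from -1.10 for Flt3 to -0.26 for Git2 (5.78% of all genes were lower), and Smad5 (adjusted p = 0.0756) and Wbp1l (adjusted p = 0.104) did not pass. Smad5 passed without female E2 replicate 1 (limma adjusted p = 0.0121) and with array weights.

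Markers of the sorted cells and of other cells were read on the same arrays. Slamf1, which encodes CD150, read 350 to 686 and Kit 1820 to 2756, while Cd48 read 62.8 to 116, below the filter level on every array. Some marker sums moved in the direction of the 4 genes. The 8 megakaryocyte markers summed to 4353 to 4735 and 3542 to 3752 in males under oil and E2, and to 4261 to 4651 and 2869 to 3837 in females. The 9 B cell markers, of which only Cd79b lay above the filter, summed to 1087 to 1456 and 935 to 1086 in males and to 1201 to 1360 and 931 to 1011 in females. The 8 markers of the sort and of stem and progenitor cells summed to 7892 to 8292 and 6402 to 6535 in males and to 7529 to 7780 and 5806 to 6283 in females. The 11 monocyte and macrophage markers summed to 2917 to 3254 and 2683 to 3079 in males, which overlap, and to 2937 to 3498 and 2544 to 2889 in females, which do not. Their means differed in both directions. In females Lyz2, the brightest of them, averaged 1902 ± 214 under oil and 1310 ± 101 under E2 (mean ± SD, n = 3), while Cd68 averaged 376 and 487, Ccr2 88.6 and 147, and Csf1r 72.2 and 94.7. Neither Lyz2 (-0.33 ± 0.10 SE averaged over the sexes; limma adjusted p = 0.0651) nor Cd68 (0.12 ± 0.13; limma adjusted p = 0.637) passed, and Ccr2, below the filter and so not tested, had 0.58 ± 0.14. The sums of granulocyte, erythroid and T and NK cell markers overlapped between treatments in both sexes. The granulocyte sums varied widely within groups, from 8576 to 18487 in oil-treated males. In the averaged E2 effect, 9 of the 9 granulocyte markers above the filter had a log2 difference below 0, with a median of -0.29. The median of all genes was -0.01, so the larger part of all genes also lay below 0. Of the 9, 1 was called, and the others had limma adjusted p from 0.385 to 0.801. The count of 9 is a description. Of the markers above the filter, limma called 5 of 7 sort and progenitor genes lower, 4 of 7 megakaryocyte genes lower and 1 higher, 1 of 1 B cell genes lower, 1 of 9 granulocyte genes lower, 1 of 3 erythroid genes higher and 0 of 2 monocyte genes. Of all genes, 5.78% were lower and 3.12% higher. The part of these markers in the lower levels of the 4 genes was not tested.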

How the data were processed

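Gene expression was measured on 12 microarrays of sorted mouse HSCs, 3 per group. The authors deposited intensity on a linear scale, with 35474 probe sets from 0.62 to 16148. Per the labels' protocols, RNA was amplified and biotin-labelled with NuGEN kits (Ovation Pico WTA V2 and Encore). The sources used here name no background correction, summarisation, normalization or software. Array medians lay between 143 and 159.

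Symbols came from the platform annotation: 21780 probe sets had 1 symbol, 1605 several and 12089 none. The brightest probe set stood for each gene, and log2(intensity + 1) was computed from the deposited values. Genes with a mean above the median gene (7.52) were kept. limma 3.58.1 (R 4.3.3) fitted 1 mean per group to all arrays, followed by eBayes (residual df 8, prior df 5.38). P-values were adjusted by Benjamini-Hochberg over the 9967 genes. Figures used matplotlib 3.10.9 in Python 3.11.15. The steps were tested on simulated data.

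The 4 genes and the gene lists were chosen with earlier results of these data known. Genes named beside them were those called in each pathway list (up to 6 by smallest p), close relatives and partners, nearest measured neighbours on the chromosome, defining sort markers, and the 3 genes of highest correlation over the arrays. Galnt4, Gzma, Cd79b, Cd247, Cd3e, Ccl5, Lyz2, Cd68, Ccr2, Csf1r, Gadd45a and Perp lie outside this rule and were chosen after their values were seen. The same holds for Cd4, Zap70 and Klre1. Trp53, Cdkn1a and Ly6a, which the rule also named, had no probe set with a single symbol of their own and are not analysed here. The alternatives tried were each array left out, array weights, a replicate block, the compared groups alone, quantile normalization, centring on array medians, an offset of 16, a filter at the 25th percentile or none, averaged probe sets, robust eBayes with a trend, and an adjusted p under 0.1.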

Additional observations from a re-analysis of the deposited data

How the results depend on the processing

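The lower E2 levels of the 4 genes kept their direction in males, in females and on average under every alternative run. The averaged log2 difference ranged from -1.77 to -1.54 for Nkg7, -1.29 to -0.96 for Galnt6, -1.18 to -1.02 for Mdga1 and -0.67 to -0.56 for Trp53inp1 when 1 array was left out. The sex differences near 0 changed sign. That of Nkg7 ranged from -0.20 to 0.049 with an array left out, that of Trp53inp1 from -0.093 to 0.019 and was 0.013 with array weights, and the difference in response of Galnt6 ranged from -0.24 to 0.41 and was -0.023 with array weights. Among related genes, Mdm2 ranged from -0.076 to 0.065 (0.024 with array weights), Ccdc167 from -0.051 to 0.052, Slc4a8 from -0.28 to 0.16 and Srgn from -0.027 to 0.0065. The number of genes called behind the shares depended on the settings, and the cause was not tested beyond what each setting does. For the averaged E2 effect it was 887, with 568 without the filter, 1459 at an adjusted p under 0.1 and 476 (without female oil replicate 2) to 1147 with an array left out. In males it was 143, with 80 without the filter, 409 with array weights, 390 with the male groups alone, 264 at an adjusted p under 0.1 and 62 (without male E2 replicate 3) to 327 (without female E2 replicate 1) with an array left out. In females it was 355, with 183 without the filter, 226 with array weights, 67 with the female groups alone, 657 at an adjusted p under 0.1 and 115 (without female oil replicate 2) to 549 (without female E2 replicate 1) with an array left out. For the sex difference it was 4, with 7 without the filter, 7 at the 25th percentile, 11 with array weights and 2 to 21 (without female E2 replicate 1) with an array left out. For the difference in response it was 1, and 1 to 2 with an array left out. Same-numbered arrays of different groups had correlations of their deviations from -0.26 to 0.20, and differently numbered ones from -0.33 to 0.28. No sign of pairing by number was seen, though with 3 arrays per group it could have been missed. A replicate block gave 2 genes for the sex difference. Signal limits Nkg7 and Mdga1, whose E2 arrays lay near the filter level.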
